A study of Mus musculus with 11 samples.

Results

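The mitochondrial ribosomal protein genes were followed in hearts of female mice with a model of polycystic ovary syndrome (PCOS), induced by prenatal treatment with anti-Müllerian hormone (AMH). A row of the expression table was a member when its RefSeq accession led to a symbol beginning with Mrpl (large subunit) or Mrps (small subunit), pseudogenes left out, and when its mean over all samples was at least 1 FPKM (fragments scaled to transcript length and library total). There were 66 members, 41 of the large and 25 of the small subunit by symbol. The table held 21878 rows, of which 10891 passed the same filter and were tested. Subunits follow the symbol unless stated, although the Mrps18a, Mrps30 and Mrps36 proteins have another place (below). RefSeq lists 78 symbols of the family. The 12 without a matched row (Mrpl4, Mrpl10, Mrpl20, Mrpl21, Mrpl30, Mrpl42, Mrpl48, Mrpl58, Mrps12, Mrps17, Mrps18b and Mrps21) were not analysed here, and 0 matched members lay under the filter.

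Mitochondria carry their own ribosome, which makes the small set of respiratory chain subunits that the mitochondrial genome encodes. Its RNAs come from that genome, while every one of its proteins is encoded in the nucleus, made in the cytosol and imported, so its assembly joins the output of both genomes. Heart muscle depends on oxidative phosphorylation, and inherited defects of MRPL3, MRPL44 and MRPS22 cause mitochondrial disease in humans in which the heart can be affected.

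Bulk heart RNA was sequenced in 5 PCOS samples (wild type, female, AMH before birth) and 6 control samples (wild type, female, phosphate-buffered saline before birth). Both groups were therefore treated before birth and differ in the agent. The labels give no age, litter or batch. They do not state that each sample is a different mouse, so the p-values rest on a spread between samples that could be technical. In bulk tissue, fewer cells of a type and less RNA per cell cannot be told apart.

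The libraries held 11866291 to 14346620 reads over the listed genes, recovered from the FPKM values. Cardiomyocyte markers summed to between 30800 and 36900 FPKM in all 11 samples, so the heart label was met. Control replicate 6 held liver transcripts: 9 hepatocyte markers summed to 1669 FPKM there, against 2.23 to 8.75 in the other controls and 1.54 to 2.91 in PCOS samples. Apoe stood at 6.04 FPKM in control replicate 2 and 8.29 in control replicate 5, against 98.8 to 486 in the other 9 samples. The members' median difference and called count are given with and without these 3 libraries. Most other values use all 11 samples. Macrophage and monocyte markers, which summed to 128 to 245 FPKM in controls and 274 to 382 in PCOS samples, also separated the groups, and their part in the members' values was not tested.

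Promoter windows are shown for 7 members on which the results turn, whose promoters carry the motifs searched, or which were picked for their position. Each runs from 250 bases before to 50 bases after the gene's start (RefSeq, GRCm38.p6), 5′ to 3′ on the gene's strand. Capitals mark, on either strand, the NRF1 core GCATGCGC, the ETS core CCGGAA and the YY1 core AAGATGG. NRF1, the ETS factor GABP and YY1 are known regulators of nuclear genes for mitochondria. Mrps7 had the smallest unadjusted p of the family, Mrps15 was among the members that stood apart from most controls, Mrpl51 varied most like the other members, Mrpl32 held the most NRF1 cores among these, and Mrpl39 varied least like the others.
Mrps7, chr11:115603890-115604189, plus strand: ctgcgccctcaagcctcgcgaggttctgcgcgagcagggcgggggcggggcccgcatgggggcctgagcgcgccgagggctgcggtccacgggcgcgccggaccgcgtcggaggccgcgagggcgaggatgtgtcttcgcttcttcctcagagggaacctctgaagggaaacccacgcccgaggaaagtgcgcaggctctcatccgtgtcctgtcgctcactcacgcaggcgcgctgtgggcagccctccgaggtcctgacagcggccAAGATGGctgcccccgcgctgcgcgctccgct
Mrps15, chr4:126046678-126046977, plus strand: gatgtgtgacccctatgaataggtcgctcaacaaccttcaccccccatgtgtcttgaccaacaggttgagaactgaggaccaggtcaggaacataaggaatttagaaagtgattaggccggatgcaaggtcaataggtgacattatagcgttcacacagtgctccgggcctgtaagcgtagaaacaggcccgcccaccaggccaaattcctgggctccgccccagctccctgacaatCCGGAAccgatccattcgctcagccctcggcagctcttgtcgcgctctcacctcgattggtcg
Mrpl51, chr6:125191950-125192249, plus strand: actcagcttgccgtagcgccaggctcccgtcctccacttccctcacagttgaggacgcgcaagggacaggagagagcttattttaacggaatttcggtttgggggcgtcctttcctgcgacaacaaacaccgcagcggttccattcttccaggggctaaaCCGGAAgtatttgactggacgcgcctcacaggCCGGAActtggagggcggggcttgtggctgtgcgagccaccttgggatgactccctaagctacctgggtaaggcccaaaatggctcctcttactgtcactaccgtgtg
Mrpl32, chr13:14612988-14613287, minus strand: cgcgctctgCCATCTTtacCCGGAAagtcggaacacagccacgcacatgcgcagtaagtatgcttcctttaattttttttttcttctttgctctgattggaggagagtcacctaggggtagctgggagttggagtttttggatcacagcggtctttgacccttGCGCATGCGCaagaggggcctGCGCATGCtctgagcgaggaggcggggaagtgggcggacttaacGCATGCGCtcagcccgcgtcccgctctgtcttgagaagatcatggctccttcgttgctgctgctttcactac
Mrpl39, chr16:84735195-84735494, minus strand: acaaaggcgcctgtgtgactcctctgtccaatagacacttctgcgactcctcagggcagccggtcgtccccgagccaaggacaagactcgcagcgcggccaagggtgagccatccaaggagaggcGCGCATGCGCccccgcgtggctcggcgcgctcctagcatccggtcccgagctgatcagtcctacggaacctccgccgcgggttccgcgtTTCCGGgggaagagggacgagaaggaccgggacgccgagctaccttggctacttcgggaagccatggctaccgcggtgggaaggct
Mrpl46, a large subunit gene, and Mrps11, a small subunit gene, stand head to head on chromosome 7 with starts 42 bases apart, so their windows overlap and 1 stretch of DNA lies upstream of both.
Mrpl46, chr7:78783040-78783339, minus strand: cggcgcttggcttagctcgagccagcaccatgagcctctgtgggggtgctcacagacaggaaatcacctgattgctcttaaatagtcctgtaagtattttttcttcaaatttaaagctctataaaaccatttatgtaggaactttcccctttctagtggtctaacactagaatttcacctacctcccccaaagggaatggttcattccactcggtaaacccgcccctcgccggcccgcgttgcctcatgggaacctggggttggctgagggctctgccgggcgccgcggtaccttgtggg
Mrps11, chr7:78782881-78783180, plus strand: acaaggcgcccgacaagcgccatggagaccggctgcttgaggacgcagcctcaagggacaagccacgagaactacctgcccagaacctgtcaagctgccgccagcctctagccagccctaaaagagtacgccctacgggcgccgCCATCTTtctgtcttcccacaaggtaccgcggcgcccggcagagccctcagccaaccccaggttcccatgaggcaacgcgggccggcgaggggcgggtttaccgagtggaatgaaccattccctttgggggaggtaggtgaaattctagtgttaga

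The members' transcripts were abundant but spread widely in level. The median member had a mean of 47.35 FPKM over the 11 samples, above 88.2% of all tested rows, whose median was 7.6 FPKM. Nuclear-encoded respiratory chain subunits had a median of 789.4 FPKM and cytosolic ribosomal proteins 373.5 FPKM. The highest member was Mrpl12, at 286.8 FPKM, whose protein sits in the stalk of the large subunit and also binds the mitochondrial RNA polymerase. The lowest was Mrps10, at 6.32 FPKM, so levels within 1 ribosome spanned a factor of 45.4.

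A mean of at least 100 FPKM was found for 14 members. By symbol 10 were large (Mrpl12, Mrpl33, Mrpl51, Mrpl28, Mrpl54, Mrpl18, Mrpl52, Mrpl13, Mrpl53 and Mrpl34) and 4 small (Mrps36, Mrps16, Mrps23 and Mrps35). Between 50 and 100 FPKM lay 17 members, and 25 lay between 20 and 50 FPKM. The lowest 10 were Mrpl27, Mrps2, Mrpl35, Mrpl57, Mrpl15, Mrpl1, Mrps25, Mrpl17, Mrpl19 and Mrps10. Large and small subunit genes had like levels, with medians of 47.93 and 46.34 FPKM. FPKM divides reads by a length, and members with longer models had lower levels (Spearman rho −0.73 across the 66 genes, −0.44 with the length of the principal transcript). For 6 members, Mrps10, Mrpl27 and Mrpl41 among them, the model length was more than 2 times the principal transcript. Other members had a model much shorter than the principal transcript. Among these were Mrpl51 (1515 against 3427 bases), Mrps16 (566 against 2572) and Mrps35 (1160 against 4162), all at 100 FPKM or more. Which transcript is expressed and which bases were counted was not tested, so the effect on the FPKM of these members is not known. The order of levels may therefore depend on the length used at both ends.

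**Figure D1:**
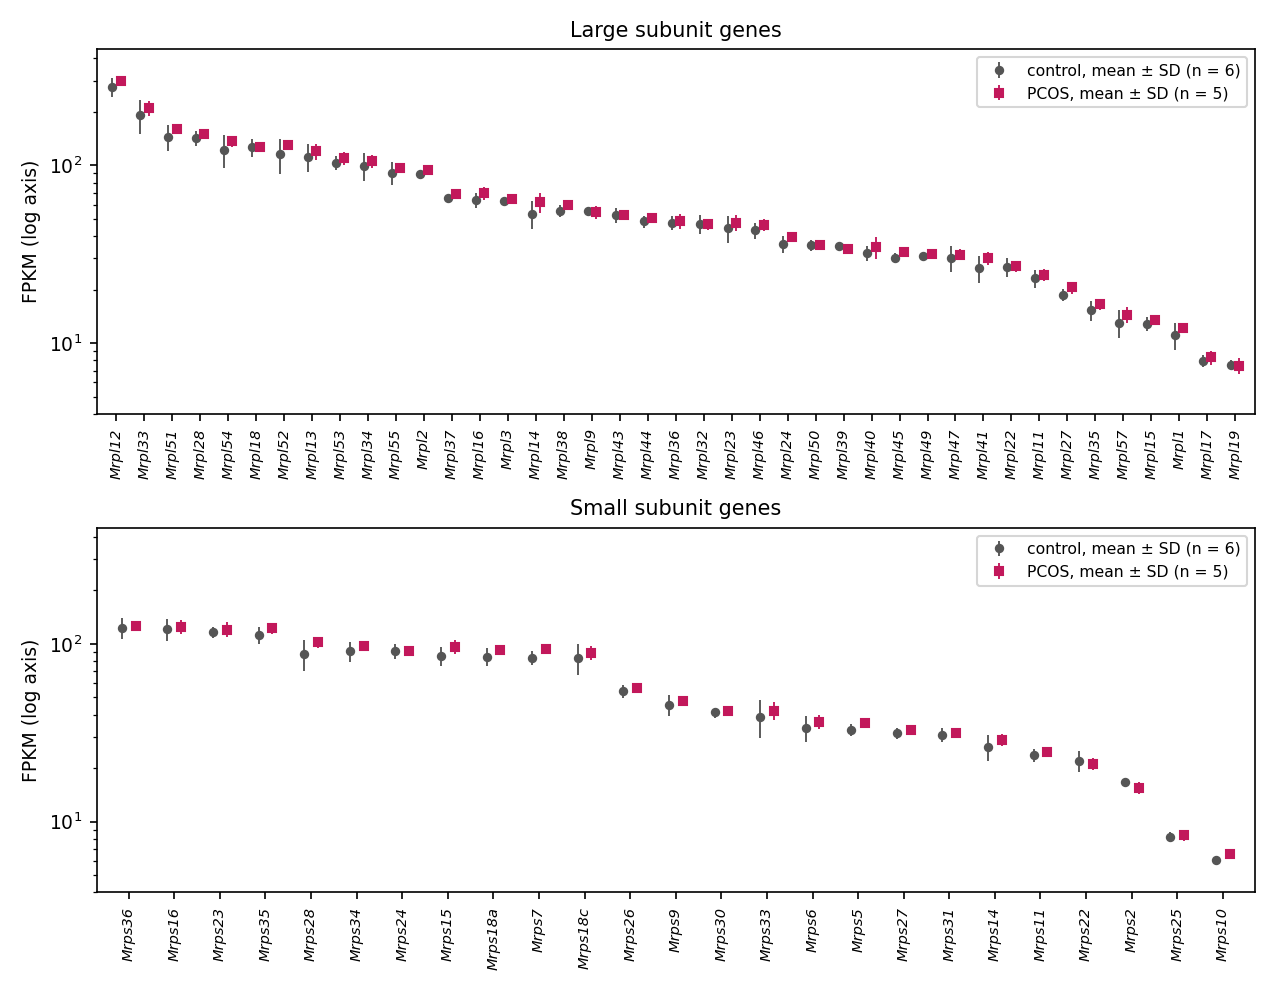
Mean FPKM (log axis, error bars SD) of each of the 41 large subunit genes (top) and 25 small subunit genes (bottom) in 6 control (grey circles) and 5 PCOS samples (red squares), ordered by level. Levels run from 286.8 FPKM (Mrpl12) to 6.32 FPKM (Mrps10), and the groups overlap in all 66 genes.

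No member passed the test between PCOS and control hearts, although most lay slightly higher in PCOS. At an adjusted p under 0.05 (limma, Benjamini-Hochberg over all tested rows) 0 of 66 members were called, where 0.138% of all tested rows were. The smallest adjusted p in the family was 0.738. On the log2(FPKM + 1) scale the median difference of PCOS minus control was 0.092, with 59 members above 0 and 7 below, against a median of 0.002 and 50.6% above 0 over all tested rows. Without control replicate 1 the members' median was 0.060. At an unadjusted p under 0.05, 1 member was higher (Mrps7) and 0 lower, where 3.51% of all rows were higher and 3.17% lower. That 1 member is 1.52% of the family, below the 8.76% of other rows under 2000 bases and the 7.54% of other rows in the members' own length classes that were higher at that p. Every PCOS sample lay above every control for 0 members and below for 0, against 0.45% and 0.248% of all rows. The 95% interval of the difference reached a 1.5-fold change in 0 of the 66 members, with bounds between −0.241 and 0.47 and standard errors of 0.048 to 0.136.

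The members' transcripts made up 0.4978% ± 0.0486 (SD, n = 6) of the recovered reads in controls and 0.5286% ± 0.0227 (SD, n = 5) in PCOS samples. The summed level was 4134 ± 468 FPKM in controls and 4412 ± 214 FPKM in PCOS samples. With 6 controls these differences were smaller than the SD between control samples, which is the spread of single samples and not a standard error. That SD includes control replicate 6, the library with liver transcripts, at 0.584% and 4981.6 FPKM. Control replicates 1 to 5 ran from 0.447% to 0.516% and from 3664.2 to 4283.6 FPKM. PCOS samples ran from 0.496% to 0.551% and from 4097.6 to 4613.5 FPKM. The groups overlapped.

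Mrps7, a small subunit protein of the ribosome's head, gave the smallest unadjusted p. Its gene lies at chr11:115604140-115608036 (GRCm38.p6). The lowest, median and highest controls were 74.9, 82.44 and 93.13 FPKM, and the PCOS samples were 97.78, 95.68, 96.54, 84.01 and 92.15 FPKM. All 5 PCOS samples lay above the control median, and 3 of them above the highest control. The difference was 0.156 ± 0.07 (SE), with unadjusted p = 0.0446 and adjusted p = 0.738 (limma). After the length correction described below, with all samples kept, it was 0.081.

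Mrps28, Mrps15 and Mrpl14 had PCOS samples mostly above 5 of the 6 controls, with control replicate 6 as high as they were. Mrps28, a small subunit protein, ran from 76.58 to 122.4 FPKM in controls with a median of 81.6, and stood at 111.1, 103.9, 102.2, 91.11 and 101.9 FPKM in PCOS samples. The highest control was replicate 6, and the other 5 controls reached at most 88.61 FPKM, below every PCOS sample. With all samples the difference was 0.227 ± 0.109 (SE; adjusted p = 0.738, limma). Mrps15, the mitochondrial counterpart of bacterial ribosomal protein S15, ran from 77.44 to 105.5 FPKM in controls, and PCOS samples stood at 105.2, 98.95, 104.3, 88.69 and 86.48 FPKM. Here too replicate 6 was the highest control, and the other 5 controls reached at most 86.41 FPKM. Mrpl14 had controls from 46.63 to 72.32 FPKM with a median of 50.15, and PCOS values of 73.53, 64.54, 61.29, 51.54 and 59.86 FPKM, with a difference of 0.224 ± 0.114 (SE; adjusted p = 0.738, limma). Replicate 6 was again the highest control, and 4 of 5 PCOS samples lay above the other 5 controls. After the length correction, with all samples kept, the differences were 0.115 for Mrps28, 0.077 for Mrps15 (0.176 before it) and 0.164 for Mrpl14.

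Among the other members with the smallest p, large subunit genes Mrpl41, Mrpl27 and Mrpl45 had differences of 0.192, 0.129 and 0.111, all at adjusted p = 0.742 (limma). Mrps5, whose bacterial counterpart affects the accuracy of decoding, differed by 0.129 and Mrps10 by 0.101, both at adjusted p = 0.738 (limma). The highest control for Mrps5 was replicate 1, at 36.63 FPKM, and PCOS samples ran from 34.22 to 38.25 FPKM.

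Members of medical interest lay on both sides of 0 but near it. Mrpl3 differed by 0.025, Mrpl44 by 0.069 and Mrps22 by −0.048, with adjusted p of 0.909, 0.809 and 0.897 (limma). Mrps34, required for small subunit stability, differed by 0.111 (adjusted p = 0.785, limma), and Mrpl12 by 0.121 (adjusted p = 0.771, limma). Some symbols mislead about place: the Mrps18a and Mrps30 proteins sit in the large subunit, and Mrps36 is a component of the alpha-ketoglutarate dehydrogenase complex. Mrps18a differed by 0.132, Mrps18c, a small subunit protein, by 0.118, Mrps30 by 0.020 and Mrps36 by 0.049 (adjusted p of 0.753, 0.822, 0.945 and 0.891, limma). After the length correction of the libraries, 4 of these lay on the other side of 0, Mrpl3 at −0.036, Mrps18c at −0.015, Mrps30 at −0.038 and Mrps36 at −0.064.

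The 7 members below 0 were Mrps2 (−0.092), Mrpl39 (−0.061), Mrps22 (−0.048), Mrpl9 (−0.020), Mrpl19 (−0.019), Mrpl32 (−0.003) and, at 0 to 3 decimals, Mrpl43, which was named after its values were seen. Mrpl39 stood at 33.33 to 36.91 FPKM in controls, and at 32.61, 32.44, 34.25, 36.11 and 32.62 FPKM in PCOS samples. The PCOS sample at 36.11 FPKM lay above the control median and the other 4 below it, and the groups overlapped. Mrps2 ran from 15.28 to 17.46 FPKM in controls and from 14.11 to 17.15 FPKM in PCOS samples, with adjusted p = 0.77 (limma). Without control replicate 6, Mrps22, Mrpl32 and Mrpl19 lay above 0, at 0.012, 0.045 and 0.004.

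Large and small subunit genes had similar median differences. The median difference was 0.097 for large subunit genes, with 36 of 41 above 0, and 0.077 for small subunit genes, with 23 of 25 above 0. The large-minus-small difference was 0.019, from unrounded medians. The SD of that quantity between single samples was 0.026, which is not a standard error of the difference between groups. Summed levels kept a ratio of 1.773 ± 0.0151 (large over small, SD, n = 6) in controls and 1.78 ± 0.0245 (SD, n = 5) in PCOS samples. The large-minus-small difference was −0.002 after length correction, −0.025 without PCOS replicate 3 and −0.027 without control replicates 2, 5 and 6. With Mrps18a and Mrps30 counted as large, Mrps36 left out and other subunits added by their place in the ribosome, it was −0.004.

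The members varied together from library to library. In each sample the deviation of every member from its own mean over the 11 samples was taken on the log2(FPKM + 1) scale. The median deviation was −0.187 in control replicate 1, −0.126 in replicate 2, 0.023 in replicate 3, −0.025 in replicate 4, −0.093 in replicate 5 and 0.175 in replicate 6. In PCOS samples it was 0.098, 0.069, 0.105, −0.036 and 0.021 in replicates 1 to 5. The controls thus held both the lowest and the highest library of the study, and the PCOS libraries lay between them. The highest was control replicate 6, the library with liver transcripts. Among control replicates 1 to 5 the highest value was 0.023, with PCOS replicates 1 to 3 above it and PCOS replicates 4 and 5 below. Control replicate 6 was the highest of all samples for 38 of 66 members and control replicate 1 the lowest for 35. Over all tested rows, 18.7% were highest in control replicate 6. The share lowest in control replicate 1, and either share among short rows alone, is not given here. Short genes in general were high in control replicate 6 and low in control replicate 1 (rho of deviation with length −0.43 and 0.53, below).

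**Figure D2:**
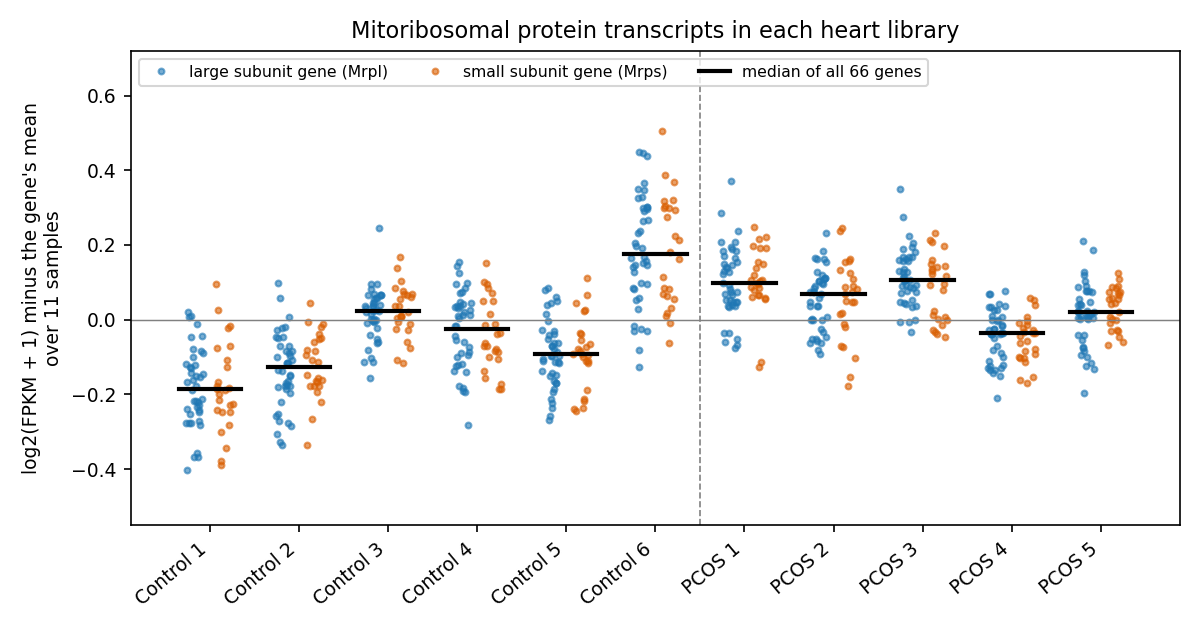
Deviation of each member from its own mean over the 11 samples (log2(FPKM + 1), vertical axis) in each library, large subunit genes in blue and small subunit genes in orange, with the median of the 66 genes as a black bar. The medians run from −0.187 in control 1 to 0.175 in control 6, the library with liver transcripts. The 5 PCOS libraries lie between −0.036 and 0.105.

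Across the 11 samples the median Pearson correlation over the 2145 pairs of members was 0.62, against 0.03 between other tested rows and 0.23 between other rows under 2000 bases. The points share their libraries, so these values are descriptions. It was 0.63 within the large subunit, 0.58 within the small and 0.62 between them, and 0.60 over all pairs once group means were removed. Without control replicate 6 it was 0.59 over all pairs, against 0.19 between other rows under 2000 bases. Mrps14 and Mrpl51 varied most like the other members, with a median correlation of 0.80. Mrpl39, Mrps2, Mrpl9 and Mrpl37 varied least like them, at −0.36, −0.18, −0.07 and −0.06. Mrpl37 and Mrps14 were named here after their values were seen.

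Transcript length moved with these library differences. Members were short, with a median length of 1367 bases against 3346 bases for all tested rows. In the libraries where members were low, short genes in general were low: the Spearman rho of deviation with length over all tested rows was 0.53 in control replicate 1 and 0.45 in control replicate 2, and −0.43 in control replicate 6. In PCOS samples it was −0.29, −0.18, −0.37, 0.24 and −0.06. Across all tested rows, the PCOS minus control difference itself had a rho of −0.37 with length.

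Beside genes of like length the family's shift was small. All tested rows were put in 20 classes of length with equal numbers of rows. The other rows of the members' own classes had a median difference of 0.055, so members lay 0.036 (from unrounded medians) above genes of like length. The SD of that quantity between single samples was 0.047, which is not a standard error of the difference between groups. With 1 sample left out, the value of 0.036 ran from 0.014 (without control replicate 1) to 0.044 (without control replicate 4). It was 0.022 on leaving out control replicate 2, and 0.024 on leaving out control replicate 3, control replicate 5 or PCOS replicate 3. Of the 66 members, 40 lay above the median of their own class. Among the 19 members under 1000 bases the median difference was 0.118, and among 589 other rows of that length 0.11. Between 1000 and 2000 bases, 29 members had 0.072 and other rows 0.060. The 12 members between 2000 and 4000 bases had 0.108 where other rows had 0.007, and the 6 longer members had 0.057 where other rows had −0.039. These bands use the length the FPKM values imply. For Mrps10, Mrpl27 and Mrpl41 that is 4844, 2596 and 2423 bases, where the principal transcripts have 1018, 756 and 776. For others, such as Mrps25, the lengths nearly match. In classes by principal transcript length, members lay 0.032 above genes of like length. When a smooth curve of deviation on length was removed from each library, the members' median difference was 0.012, with 40 of 66 above 0 where 49.3% of all rows were, and 21 members changed sign. At an unadjusted p under 0.05, 2 members, 3.03%, were then higher (limma), where 3.12% of all rows and 4.56% of other rows under 2000 bases were. Pair correlations then had a median of 0.14, against 0.00 between other rows to 2 decimals.

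**Figure D3:**
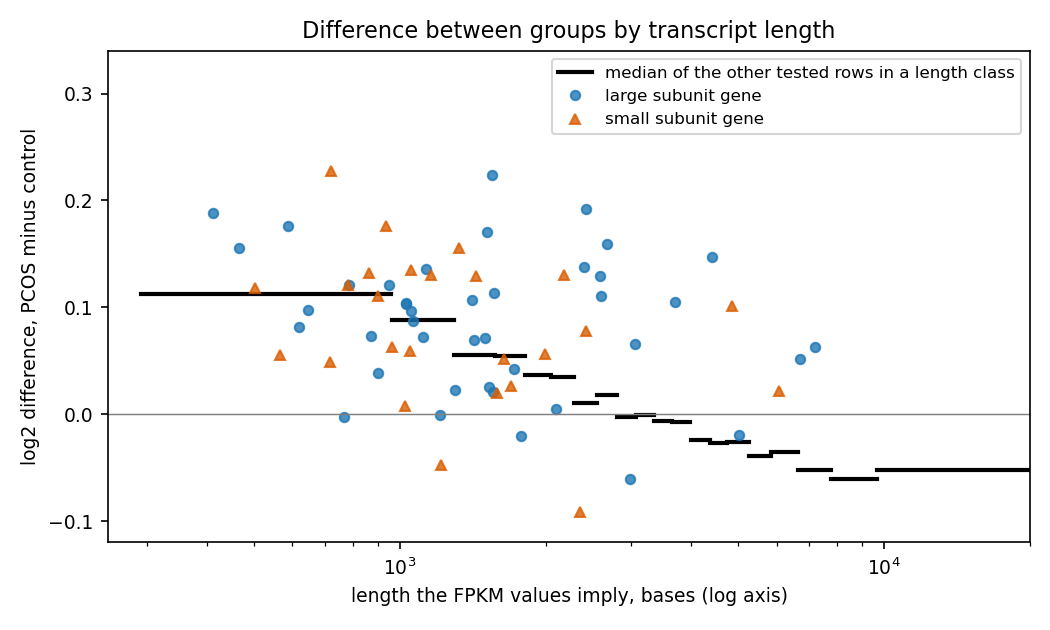
Log2 difference (PCOS minus control, vertical axis) of each large (blue circles) and small (orange triangles) subunit gene against the length the FPKM values imply (bases, log axis). Black bars give the median of the other tested rows in each of 20 length classes, which lies above 0 in the shortest classes and below 0 in the longest. Of the 66 members, 40 lie above their bar.

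Leaving out the library with liver transcripts changed what the test returned. Without control replicate 6 the median difference was 0.125 with 63 members above 0, where 49.7% of all rows were, and 1 member was called, Mrps28, which rose by 0.325 (adjusted p = 0.0469, limma), where 0.294% of all tested rows were called. Members with an unadjusted p under 0.05 numbered 26, or 39.4%, all higher in PCOS (limma), against 9.62% of all rows, 28.3% of other rows under 2000 bases and 27.1% of other rows in the members' own length classes. Every PCOS sample then lay above every remaining control for 3 members, Mrpl54, Mrps15 and Mrps28, where 1.7% of all rows did so. Mrpl54, named after its values were seen, stood at 105.3 to 122.0 FPKM in controls 1 to 5, at 174.2 FPKM in control 6 and at 124.0 to 144.7 FPKM in PCOS samples. With length correction as well, the median was 0.026 with 37 members above 0, where 50.3% of all rows were. Mrps28 was then no longer called: 0 members were, against 0.156% of all rows, and the smallest adjusted p was 0.165 (limma). Then 10 members, 15.2%, were higher at an unadjusted p under 0.05 (limma), against 5.93% of all rows and 7.38% of other rows under 2000 bases. Sample weights, with all 11 libraries kept, gave a median of 0.119 with 61 members above 0 (all rows 50.1%) and 23, or 34.8%, higher at an unadjusted p under 0.05 (limma; all rows 9.06%, other rows under 2000 bases 24.4%). With the replicate number as a block, a fit in which control replicate 6 does not bear on the difference, 63 members lay above 0 (all rows 49.7%), and 24, or 36.4%, were higher at that p (limma; all rows 9.2%, other rows under 2000 bases 27.3%). With either of these fits 0 members were called, where 0.23% of all rows were.

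Leaving out the low-Apoe libraries lowered the members' difference instead. Without control replicates 2 and 5 the median difference was 0.047, 52 members lay above 0 where 50% of all rows did, and 0 had an unadjusted p under 0.05 (limma), where 1.85% of all rows and 3.97% of other rows under 2000 bases were higher at that level. Without all 3 libraries it was 0.098 with 62 above 0 (all rows 48.4%) and 0 called (all rows 0.202%). Then 14 members, 21.2%, were higher at an unadjusted p under 0.05 (limma), against 5.59% of all rows and 15.5% of other rows under 2000 bases. Mrpl54, Mrps15 and Mrps28 again stood above every remaining control, where 2.81% of all rows did.

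Other gene groups followed the members from library to library. Nuclear-encoded respiratory chain subunits, which join the proteins made by mitochondrial ribosomes, had median deviations of −0.215 in control replicate 1, 0.239 in control replicate 6 and 0.211 in PCOS replicate 1. Cytosolic ribosomal proteins had −0.184, 0.335 and 0.166 in the same libraries. Both lists were low and high in much the same libraries as the members, and both consist of short transcripts, with median lengths of 731 and 808 bases.

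**Figure D4:**
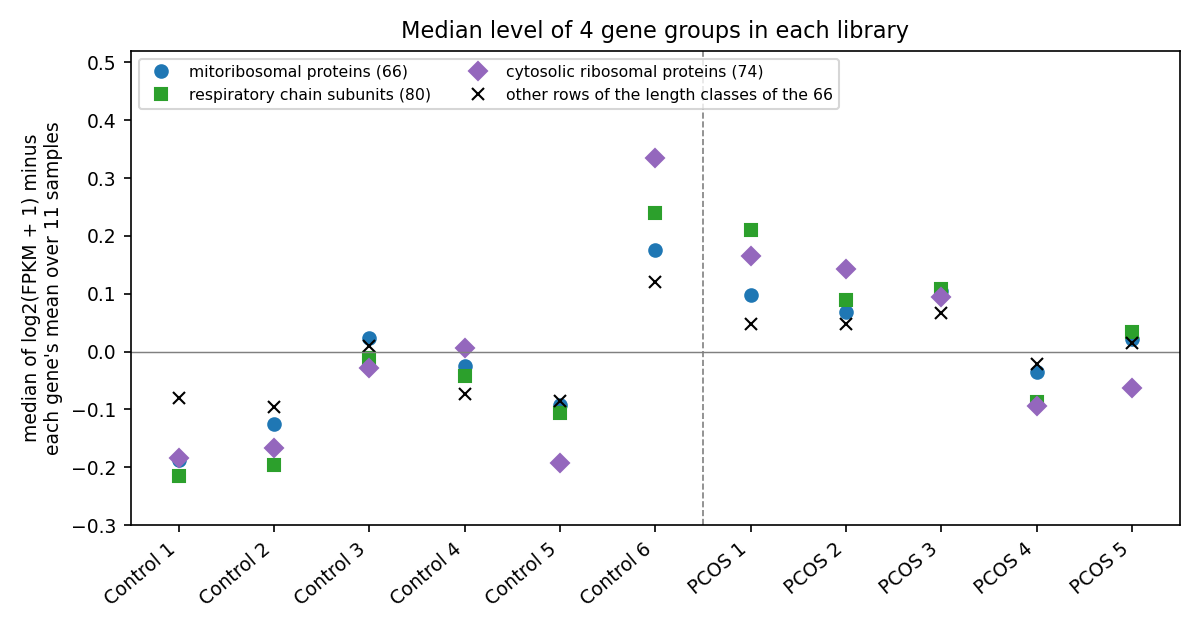
Median deviation (log2(FPKM + 1), vertical axis) of 4 gene groups in each library: the 66 members (circles), 80 respiratory chain subunits (squares), 74 cytosolic ribosomal proteins (diamonds) and other rows of the members' length classes (crosses). All 4 are highest in control replicate 6 and below 0 in control replicates 1, 2 and 5.

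The wider machinery of mitochondrial translation was described from lists, none of which held a called gene. Of 4 tested subunits with other names, 4 lay above 0, with a median of 0.129. Gadd45gip1, a large subunit protein, differed by 0.159 and Aurkaip1, a small subunit protein, by 0.156 (adjusted p of 0.742 and 0.753, limma). Of 24 tested assembly and rRNA modification factors 19 lay above 0, with a median of 0.055. Mrm2, which methylates the large rRNA, stood at 8.91 ± 0.594 FPKM in controls (SD, n = 6) and 10.55 ± 1.12 FPKM in PCOS samples (SD, n = 5). Its difference was 0.217, and that of Rpusd4, a pseudouridine synthase acting on the large rRNA, was 0.196 (adjusted p = 0.738 for both, limma).

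The remaining lists of mitochondrial gene expression had medians near or below 0 and held longer transcripts. Median lengths were 2534 bases for translation factors, 3572 for aminoacyl-tRNA synthetases, 3121 for transcription and RNA processing genes and 2886 for proteases and chaperones, against 1487 for the other subunits and 2067 for assembly factors. After length correction the medians of these 4 lists were −0.014, 0.009, −0.008 and −0.015, and those of the other subunits and assembly factors 0.092 and 0.045. Translation factors had a median of 0.007 with 8 of 15 above 0; the initiation factor gene Mtif3 differed by 0.142 and the release factor gene Mtrf1 by −0.147 (adjusted p of 0.738 and 0.761, limma). Aminoacyl-tRNA synthetases and related enzymes, which charge the tRNAs, had −0.006 with 9 of 18 above 0; Gatb and Qrsl1, subunits of the amidotransferase that makes glutaminyl-tRNA, differed by 0.092 and 0.078 (adjusted p of 0.785 and 0.809, limma). Transcription, genome maintenance and RNA processing genes had −0.022 with 4 of 9 above 0. Hsd17b10, part of mitochondrial RNase P, differed by 0.125 and Polrmt, the mitochondrial RNA polymerase, by −0.083 (adjusted p of 0.738 and 0.795, limma). Proteases and chaperones had −0.009 with 3 of 9 above 0, Clpp at 0.170 and Htra2 at 0.132 (adjusted p of 0.738 and 0.752, limma).

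Respiratory chain subunits had a median difference of 0.124 with 73 of 80 above 0, and cytosolic ribosomal proteins 0.081 with 67 of 74 above 0. Ndufa11 of complex I differed by 0.215, Atp5g1 of ATP synthase by 0.141, Rpl21 by 0.252 and Rpl29 by 0.177 (adjusted p of 0.738, 0.738, 0.749 and 0.756, limma). After length correction the medians of these lists were 0.009 and −0.024, beside 0.012 for the members.

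**Figure D5:**
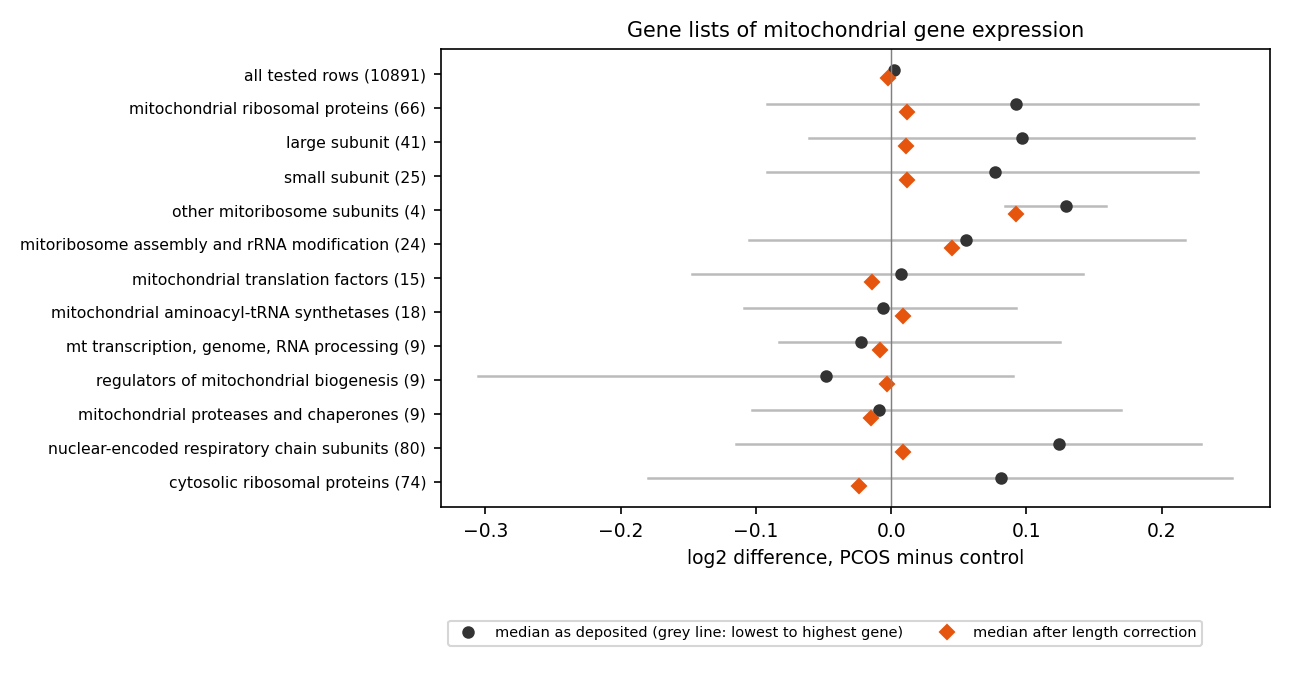
Median log2 difference (PCOS minus control, horizontal axis) of each gene list as deposited (black circles, grey line from the lowest to the highest gene) and after length correction (orange diamonds), with the number of tested genes in brackets. The members' median is 0.092 as deposited and 0.012 after length correction, and respiratory chain subunits and cytosolic ribosomal proteins move from 0.124 and 0.081 to 0.009 and −0.024.

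Regulators of mitochondrial biogenesis, with a median length of 6828 bases, had a median difference of −0.048 with 3 of 9 above 0. After length correction their median was −0.003 with 4 of 9 above 0. Without control replicate 6 it was −0.137 with 2 of 9 above 0, and with length correction as well −0.040 with 3 of 9 above 0. Yy1, whose core was searched in the promoters, stood at 13.99 ± 0.798 FPKM in controls (SD, n = 6) and 12.21 ± 1.18 FPKM in PCOS samples (SD, n = 5), a difference of −0.185 (adjusted p = 0.738, limma). Myc differed by −0.305 (adjusted p = 0.738, limma), and its levels, 1.08 to 3.161 FPKM, were low.

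RefSeq promoter windows of 300 bases were at hand for 58 of the 66 members, in 61 windows. The ETS core CCGGAA, on either strand, stood in 57.4% of member windows, 27.0% of windows of other tested genes and 14.9% of all 32851 windows. The longer ETS motif CCGGAAGT, which contains the core, stood in 18.0%, 8.02% and 3.89%. The YY1 core AAGATGG stood in 18.0%, 7.23% and 6.34%, and the NRF1 core GCATGCGC in 9.84%, 5.02% and 2.71%. All 6 windows with an NRF1 core belonged to large subunit genes, and no small subunit window held it. The TATA box TATAAA stood in 4.92% of member windows, 7.32% of windows of other tested genes and 13.6% of all. The SP1 motif GGGCGG stood in 52.5%, 63.5% and 35.7%, a member share below that of other tested genes and above that of all windows. The CCAAT box stood in 42.6%, 37.3% and 37.4%, and the E-box CACGTG in 9.84%, 9.87% and 7.15%. Shares are over windows, and Mrpl2 and Mrps16 count more than once, each time with an ETS core. By gene, 32 of the 58 members held an ETS core. These are matches of letters only, and windows of head-to-head neighbours overlap.

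The printed windows show where these matches fall. Mrps7 has its YY1 core just after the start, Mrps15 its ETS core and Mrpl51 a pair of ETS cores before it, and Mrpl32 and Mrpl39 carry the full palindromic NRF1 motif, which holds the core once on each strand and so counts as 2 overlapping matches. Mrps11 holds a YY1 core, while the Mrpl46 window, which shares its start-side bases with Mrps11, holds none of the 3 cores. Mrpl46 stood at 43.13 ± 4.528 FPKM in controls (SD, n = 6) and 46.34 ± 3.722 FPKM in PCOS samples (SD, n = 5), and Mrps11 at 23.61 ± 1.934 and 24.6 ± 1.309 FPKM; both were named for their position. Of the 58 members 22, or 37.9%, had a head-to-head neighbour with its start within 1000 bases, against 19.1% of other tested genes.

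Differences between groups were also set out by core, as a description. The 32 members with an ETS core had a median difference of 0.071 and the 26 without 0.102, the 11 with a YY1 core 0.059 and the 47 without 0.087. The 6 with an NRF1 core, Mrpl32 and Mrpl39 among them, had 0.009 and the 52 without 0.092.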

How the data were processed

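Heart RNA was sequenced in 11 samples, grouped by their titles into 6 control and 5 PCOS samples. Per the labels' protocols, the kit selected mRNA and kept strand. Named without roles, per the submitters' processing notes, are HISAT2 2.2.1, HTSeq 0.13.5, DESeq2 1.18.1, R 3.4.1, Trimmomatic 0.38 and FastQC 0.11.9, with the build mm10. The authors deposited FPKM per RefSeq gene model, used here with no further scaling. FPKM is relative within a library and divided by a length, so a library in which reads vary with transcript length moves short genes together.

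Symbols came from RefSeq (GRCm38.p6), matched for 87.2% of rows. Whole reads and lengths were recovered from the FPKM steps. Of 15939 rows above 0 in at least 3 samples, all 15939 gave whole reads within 0.15. limma 3.58.1 in R 4.3.3 (lmFit, eBayes with trend) was fitted on log2(FPKM + 1), which understates changes of low genes, over the 10891 rows averaging 1 FPKM or more. The read recovery and the fit were tested on simulated data. In the fit's simulation rows varied independently, while the members here varied together. That simulation therefore cannot show how the fit handles shared library differences.

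The members and gene lists were chosen with earlier results of these data known. Named members are, per subunit, the 4 smallest unadjusted p in each direction, the 3 highest and 3 lowest levels, members whose groups do not overlap, and a fixed set of disease or placement interest. Lists name their 2 smallest p, and the regulators also Gabpa. Alternatives changed the pseudocount, filter, scaling, length correction, test, block, weights and libraries. Those with the principal transcript length, without control replicates 2, 5 and 6, and with length correction without control replicate 6 were added after seeing the data.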

Additional observations from a re-analysis of the deposited data

Results flagged for a closer look

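Single samples stood far from the rest of their group in 5 of 70 tests of a group's highest or lowest value, where chance marks about 1 in 20. In 4 of them the sample was control replicate 6, the library with liver transcripts. There Mrpl14 stood at 72.32 FPKM (other controls 46.63 to 53.52), Mrps15 at 105.5 FPKM (77.44 to 86.41), Mrps28 at 122.4 FPKM (76.58 to 88.61) and Mrps34 at 113.5 FPKM (82.02 to 92.98). The other was Mrpl9 in PCOS replicate 3, at 62.11 FPKM, where the other PCOS samples ran from 51.22 to 53.1 FPKM.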

How the results depend on the processing

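Over the 23 alternatives that refitted the members, the median difference stayed above 0, from 0.012 with length correction to 0.125 without control replicate 6 (0.060 to 0.125 with 1 sample left out). Above like-length genes it ran from 0.014 to 0.044 with 1 sample left out. The count of called members was 0 in each except without control replicate 6, where it was 1 (0 to 1 with 1 sample left out). The large-minus-small difference ran from −0.025 to 0.029 with 1 sample left out and was −0.027 without control replicates 2, 5 and 6. The cause was not tested.

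The shared replicate numbers showed no clear pairing of the samples. Deviations of same-numbered samples correlated at 0.13, −0.03, −0.12, 0.25 and 0.10, and those of differently numbered samples at −0.48 to 0.28. The labels state no pairing, and so few values cannot exclude it. With the replicate number as a block, in which control replicate 6 is a block of its own and adds nothing to the estimate, the median difference was 0.125 (large subunit 0.125, small 0.120, large minus small 0.005, above like-length genes 0.035), 0 members were called (all rows 0.23%), the smallest adjusted p was 0.0839 and 24 members had an unadjusted p under 0.05 (limma; 36.4%, against 9.2% of all rows and 27.3% of other rows under 2000 bases). With sample weights the median was 0.119, 0 were called (all rows 0.23%), the smallest adjusted p was 0.12 and 23 had an unadjusted p under 0.05 (limma; 34.8%, against 9.06% and 24.4%). Of the 30 named members, 7 changed sign with length correction and 3 with the block. Single samples differ more than the groups do, which limits what 6 and 5 samples can show for differences of this size.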
